A study of Mus musculus with 9 samples.

Results

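Genes of DNA replication and S phase were followed after knockdown of Gata4 or Tbx20, a pair of transcription factors of heart development, in primary fibroblasts grown from the hearts of mice. The group held 38 genes, chosen by name for their known roles and matched by symbol, of 38924 genes in the deposited table. All 38 were found, and all 38 passed the filter on low counts in every comparison. By the labels the cells came from 8 to 10 weeks old mice (the study's methods give a wider range for all its experiments) on a C57BL/6 background that carry Cas9-EGFP at the Rosa locus. The allele's name in the methods places it under CAG, a promoter active in most cell types, so the nuclease and the green protein were present in all groups, controls included. Fibroblasts were cultured for 3 days, sorted as CD45-, CD31- and CD90+ cells, replated, and transfected 6 days later at 80 to 90% confluency. RNA was collected 72 hr after transfection. Control cells received scrambled guide RNAs, Gata4 KD cells 2 guides to Gata4 and Tbx20 KD cells 2 guides to Tbx20. Each group had 3 libraries, named a, b and c, and the labels give no batch, date or animal, so p-values measure the spread between these libraries, whatever its source. No selection of edited cells or cloning step was described for these cultures.

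A cell copies its genome once in each division cycle. In G1 the origin recognition complex, Cdc6 and Cdt1 load the ring-shaped MCM helicase onto origins. At the start of S phase Cdc45 and the GINS proteins turn MCM into a moving helicase, primase and the polymerases copy both strands, and PCNA holds the polymerases on the template. Transcription factors of the E2F family switch many of these genes on together as cells leave G1, which is why their transcripts are widely read as a mark of how many cells in a culture are dividing. Cardiac fibroblasts divide little in the healthy adult heart and readily in culture.

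Levels are given as CPM, counts scaled to library size with TMM factors over all 9 libraries. Total counts ranged from 31214828 to 41950397 a library. The 38 genes held 0.182 to 0.258% of them, and no member had fewer than 114 counts in any library. Gata4 lay at 46.7 to 65.5 CPM in Gata4 KD against 155 to 167 CPM in control. Tbx20 lay at 320 to 428 CPM in Tbx20 KD against 720 to 1276 CPM in control, so each target was lower in all libraries that received its guides, although Tbx20 itself had an adjusted p of 0.748 in edgeR's quasi-likelihood test. All 8 fibroblast markers were detected, with Col1a1 at 2672 to 4330 CPM, the sorting marker Thy1 at 74.9 to 111 CPM and Lum at only 0.523 to 4.04 CPM. Leukocyte and endothelial markers were detected too. Their sums were 23.3 to 56.9 CPM for 8 leukocyte and 41.5 to 61.3 CPM for 8 endothelial markers, against 6655 to 10749 CPM for the fibroblast markers. The 8 cardiomyocyte markers summed to 0.581 to 1.73 CPM. Nppa and Pln were at 0 in all 9 libraries, while Ryr2, the highest, lay at 0.387 to 1.49 CPM. Tnni3 and Myl2 were also above 0 in all 9, at lower levels. Libraries of one group differed by more than counting error (chi-square per degree of freedom of 6.2 to 65 over all genes). This does not tell whether they came from separate cultures.

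All parts of the replication machinery were transcribed. Mean levels over the 9 libraries ran from 2.39 CPM per kilobase of exon for Orc1 to 66.7 for Pcna, with a median of 8.5. Pcna, which encodes the sliding clamp, stood first, followed by Mcm4 at 45.2, Rrm2 at 38.2, Mcm6 at 34.9 and Mcm3 at 28.5 CPM per kilobase. The length of a gene counts all its annotated exons, so this order depends in part on the annotation. Before division by length Rrm1 was highest, with a mean of 294 CPM over 11.01 kilobases of exon, against 160 CPM over 2.40 kilobases for Pcna. The 6 subunits of the MCM ring, Mcm2 to Mcm7, all lay between 13.3 and 45.2. Of the other 4 licensing factors, which load the ring, Orc6 lay at 13.7, Cdt1 at 4.53, Cdc6 at 4.06 and Orc1 at 2.39 CPM per kilobase. The 5 helicase activation genes lay between 2.53 for Gins1 and 7.76 for Gins2. Of the Pcna transcript, 13.85% of 75 base windows also occur in another gene, mainly the pseudogene Pcna-ps2. Reads of this highest member per kilobase could thus be divided between gene and pseudogene by the authors' counting. No other member was over 10%.

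**Figure D1:**
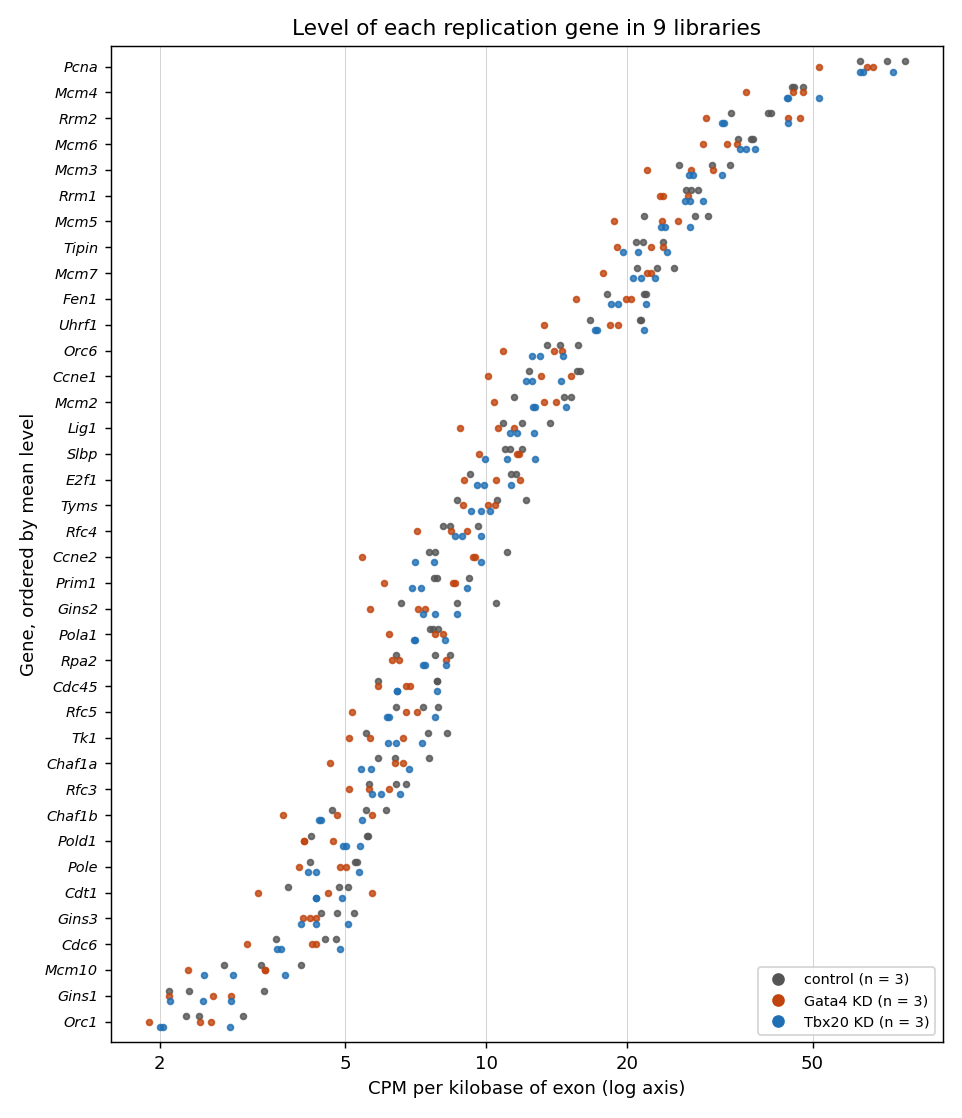
Level of each of the 38 replication genes in CPM per kilobase of exon (log axis), 1 point a library, coloured by group with 3 libraries each, ordered by the mean over 9 libraries. Pcna is highest at a mean of 66.7 and Orc1 lowest at 2.39, and the points of the 3 groups overlap for nearly all genes.

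Of the 38 members, 32 had a promoter in RefSeq (GRCm38.p6), taken as 250 bases before to 50 after the start. The letters of 4 E2F-type cores were searched on both strands. The core TTCCCGC was found in 15 of the 32 members (46.9%), against 5.29% of all genes with a promoter in the table. The core TTGGCGC was found in 7 (21.9%, against 2.85%), the core TTCGCGC in 8 (25%, against 1.81%) and the core TTGCCGC in 2 (6.25%, against 2.05%). At least 1 of the 4 was in the window of 21 of the 32 members (65.6%), against 2936 of 27025 genes (10.9%). The share was close to that of the members in 52 further genes of replication and S phase, described below, with 26 of 42 (61.9%). Among mitosis genes it was 4 of 22 (18.2%), among genes that hold the cycle back 2 of 7 (28.6%) and among G1 genes 0 of 3. Pcna, Tyms, Tk1, E2f1 and Ccne1 were among the members with none of these letters in the window. The 4 members of highest mean CPM that hold a core are shown, as examples of the cores in highly expressed members. They include Rrm1 and Mcm6, whose levels varied least within groups. Capitals mark the cores in either orientation.
Rrm1, GRCm38.p6, chr7:102441445-102441744, plus strand: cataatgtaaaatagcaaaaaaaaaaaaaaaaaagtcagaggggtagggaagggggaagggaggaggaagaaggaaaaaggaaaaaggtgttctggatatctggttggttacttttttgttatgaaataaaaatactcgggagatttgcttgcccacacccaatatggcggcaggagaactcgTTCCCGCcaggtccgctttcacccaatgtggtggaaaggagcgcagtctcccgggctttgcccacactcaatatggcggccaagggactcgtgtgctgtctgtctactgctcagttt
Mcm6, GRCm38.p6, chr1:128359656-128359955, minus strand: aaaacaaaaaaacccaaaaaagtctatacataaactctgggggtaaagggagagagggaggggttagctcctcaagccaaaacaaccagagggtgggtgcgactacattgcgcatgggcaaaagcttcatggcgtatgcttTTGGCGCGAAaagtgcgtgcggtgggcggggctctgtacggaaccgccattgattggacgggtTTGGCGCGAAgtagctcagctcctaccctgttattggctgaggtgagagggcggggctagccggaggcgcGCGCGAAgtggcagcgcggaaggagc
Mcm3, GRCm38.p6, chr1:20820263-20820562, minus strand: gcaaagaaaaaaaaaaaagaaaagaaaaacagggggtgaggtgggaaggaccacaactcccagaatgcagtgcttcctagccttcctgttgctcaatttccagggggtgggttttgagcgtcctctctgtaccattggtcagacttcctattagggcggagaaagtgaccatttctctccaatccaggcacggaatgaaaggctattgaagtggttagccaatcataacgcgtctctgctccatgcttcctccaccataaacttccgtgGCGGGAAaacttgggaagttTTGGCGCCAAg
Rrm2, GRCm38.p6, chr12:24708004-24708303, plus strand: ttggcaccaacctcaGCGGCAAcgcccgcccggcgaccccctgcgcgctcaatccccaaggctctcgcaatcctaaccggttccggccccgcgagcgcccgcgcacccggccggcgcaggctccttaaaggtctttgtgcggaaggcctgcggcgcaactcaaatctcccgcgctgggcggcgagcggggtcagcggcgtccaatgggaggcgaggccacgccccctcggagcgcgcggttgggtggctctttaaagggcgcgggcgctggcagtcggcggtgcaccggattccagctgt
Mcm6 held 5 matches, of which 2 pairs overlap, each a TTGGCGC core running into a TTCGCGC core of the opposite strand. Mcm3 held 3 matches, and TTGGCGC on one strand overlaps TTGGCGC on the other. Rrm1 and Rrm2 held 1 match each. A match describes letters only, and binding was not measured here.

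The transcripts of the 38 genes rose and fell together from library to library, within groups as well as between them. A replication score, the mean log2 CPM of the 38 genes, was 5.46, 5.26 and 5.55 in control a, b and c. It was 5.44, 5.36 and 5.03 in Gata4 KD a, b and c, and 5.52, 5.29 and 5.26 in Tbx20 KD a, b and c. Gata4 KD c was thus lowest and control c highest of the 9, while Gata4 KD a and b lay among the controls. The group means were 5.42 ± 0.15 in control, 5.28 ± 0.22 in Gata4 KD and 5.36 ± 0.15 in Tbx20 KD (SD, n = 3). The largest difference between group means was 0.15 on the log2 scale, 0.84 times the pooled SD within groups of 0.173. A largest difference is above 0 even where groups do not differ, so this size alone shows no effect of a knockdown. In these bulk libraries fewer cells in S phase and less of these RNAs per cell cannot be told apart.

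Gene by gene the order was nearly the same. Gata4 KD c was the lowest of 9 libraries in 35 of 38 members (92.1%), against 12.4% of all 14782 genes kept. Within its own group it was lowest in all 38, and its median difference from Gata4 KD a was 0.39 on the log2 scale, 1.31-fold. Tbx20 KD a was the highest of its group in all 38 members, against 41.6% of all genes, by a median of 1.15-fold over Tbx20 KD b and 1.19-fold over Tbx20 KD c. Among controls, b was lowest in 33 members (86.8%, against 43.5% of all genes) and c highest in 28. The same comparisons centred near 0 over all genes, where the medians of all differences between libraries of one group were within 0.03 on the log2 scale. The TMM factors are chosen to bring most genes of the libraries level, so these medians were largely set by the scaling.

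**Figure D2:**
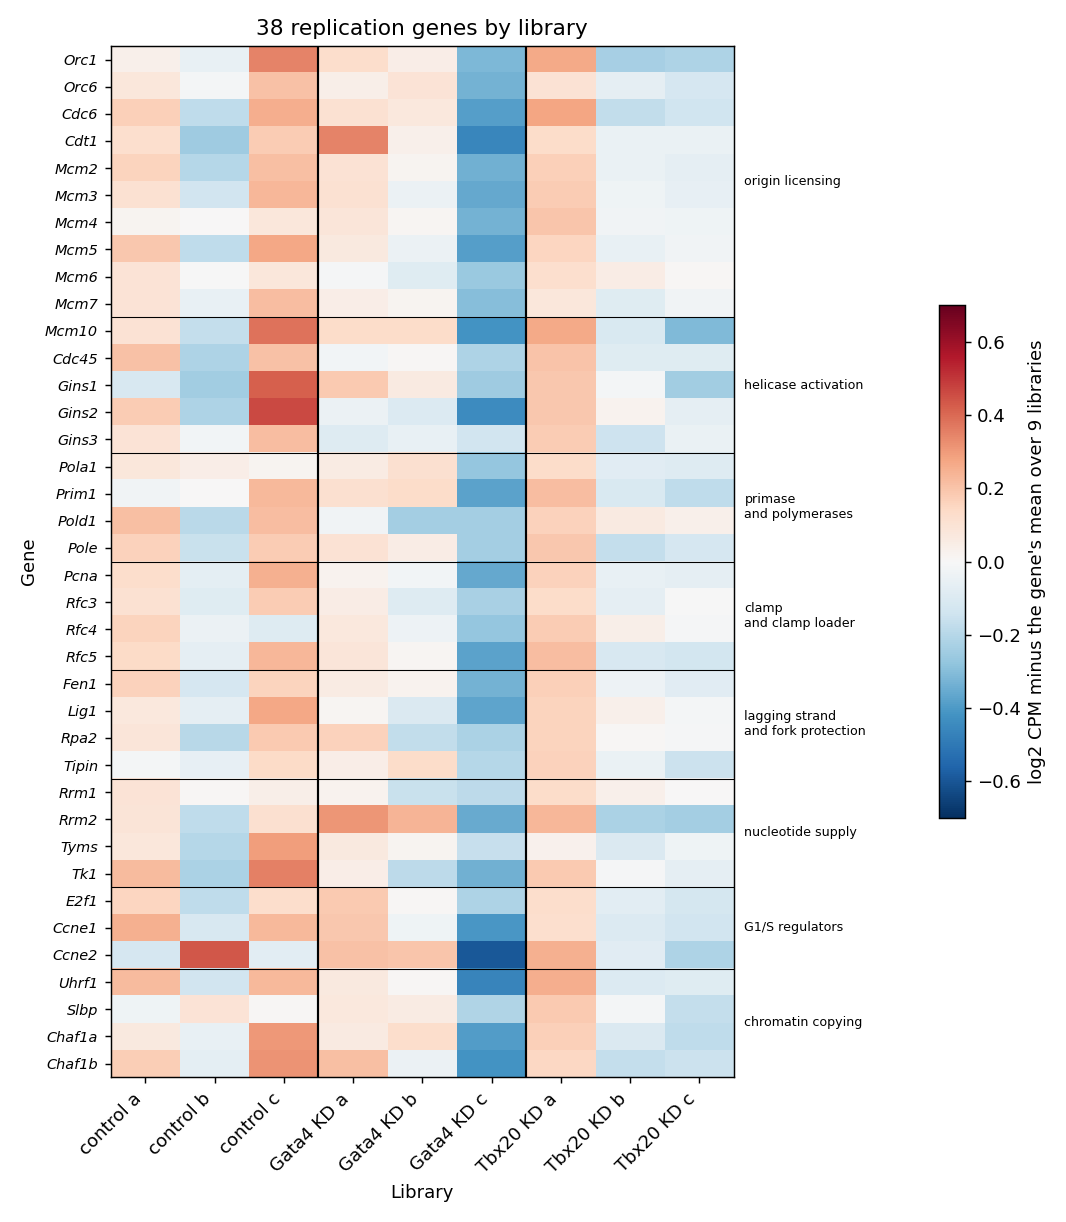
Log2 CPM of each of the 38 genes minus its own mean over 9 libraries, with libraries in columns, groups parted by vertical lines and roles by horizontal lines. The column of Gata4 KD c is blue for all genes and the columns of control c and Tbx20 KD a are red for most. In control b Ccne2 departs most from the others, at 0.435, and Slbp (0.095) and Pola1 (0.045) are among the others above their means.

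The origin licensing genes make up the largest role, with 10 members. Mcm4, a subunit of the MCM helicase and the highest of this role per kilobase, had 164, 162 and 171 CPM in control a, b and c, 171, 163 and 129 CPM in Gata4 KD, and 185, 159 and 158 CPM in Tbx20 KD. Cdt1, which brings MCM to origins and is destroyed once S phase begins, varied most within groups (SD 0.27, log2), with 15.2, 11.8 and 15.9 CPM in control, 17.9, 14.4 and 10.2 CPM in Gata4 KD and 15.4, 13.6 and 13.6 CPM in Tbx20 KD. Both the highest and the lowest of the 9 Cdt1 values were thus in Gata4 KD. Orc6, a subunit of the origin recognition complex, had 35.6, 33.4 and 38.8 CPM in control, 34.6, 36 and 26.8 CPM in Gata4 KD and 36.1, 32.2 and 31 CPM in Tbx20 KD. Mcm6 was among the steadiest members (SD 0.09), with 174, 162 and 172 CPM in control, 161, 153 and 136 CPM in Gata4 KD and 176, 168 and 163 CPM in Tbx20 KD. All 3 Gata4 KD values of Mcm6 were under those of both other groups, where 7.62% of all genes were wholly lower in Gata4 KD than in control and 10.8% than in Tbx20 KD.

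Of the helicase activation genes, Gins2, a GINS subunit, had 35.5, 27 and 43.1 CPM in control, 30.4, 29.3 and 23.1 CPM in Gata4 KD, and 35.6, 31.9 and 30 CPM in Tbx20 KD. Mcm10, which helps the helicase start to move, had 25.4, 21.1 and 30.9 CPM in control, 25.9, 25.9 and 17.7 CPM in Gata4 KD, and 28.5, 22.1 and 19.1 CPM in Tbx20 KD. For both genes the controls spanned most of the range of the 9 libraries. As a role these 5 genes had the largest median SD within groups, 0.24 on the log2 scale, against 0.15 to 0.23 in the other roles and 0.152 over all genes kept.

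The polymerase genes differed in how closely they followed the score. Prim1, the catalytic primase subunit, had 29.9, 30.4 and 35.5 CPM in control, 32.8, 33.2 and 23.4 CPM in Gata4 KD and 35.2, 28.1 and 26.9 CPM in Tbx20 KD. Pold1, the catalytic subunit of polymerase delta, had 27, 20.5 and 27.1 CPM in control, 22.9, 19.8 and 19.8 CPM in Gata4 KD, and 26.1, 24.4 and 24 CPM in Tbx20 KD. All 3 Gata4 KD values of Pold1 were below the Tbx20 KD values, and control b lay among them. Pola1, the polymerase that extends primers, and Pole, the leading strand polymerase, ranged over 1.32-fold and 1.34-fold across the 9 libraries.

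The clamp Pcna had 173, 152 and 189 CPM in control, 162, 157 and 124 CPM in Gata4 KD, and 178, 154 and 152 CPM in Tbx20 KD. Rfc5, a subunit of the clamp loader, had 34.3, 29.9 and 36.8 CPM in control, 33.2, 31.5 and 24.1 CPM in Gata4 KD, and 36.3, 28.9 and 28.7 CPM in Tbx20 KD. Both followed the score, with Gata4 KD c lowest and control c highest. Rpa2, which coats single-stranded DNA, had 23.3, 19.2 and 25 CPM in control, 24.6, 19.5 and 18.8 CPM in Gata4 KD and 24.5, 22.1 and 21.9 CPM in Tbx20 KD. Tipin, part of the complex that steadies forks, had 40.5, 39.2 and 44.7 CPM in control, 42.1, 44.7 and 35.6 CPM in Gata4 KD and 45.6, 39.5 and 36.8 CPM in Tbx20 KD. The groups overlapped for all 4 genes.

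The genes of nucleotide supply showed the widest contrast in stability. Rrm1 and Rrm2 encode the large and the small subunit of ribonucleotide reductase, which makes deoxyribonucleotides. Rrm1 had 313, 295 and 302 CPM in control, 298, 263 and 259 CPM in Gata4 KD, and 321, 301 and 294 CPM in Tbx20 KD. Rrm2 had 111, 92.6 and 113 CPM in control, 130, 123 and 81.9 CPM in Gata4 KD, and 123, 89.6 and 88.7 CPM in Tbx20 KD. Rrm1 had the smallest SD within groups of all 38 members (0.0795, log2) and Rrm2 one of the larger (0.277). Rrm2 was also the only member with a positive log2 fold change in Gata4 KD against control, 0.08 (95% interval -0.31 to 0.46).

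The cyclin E genes, which drive the step from G1 into S phase, parted from each other. Ccne1 had 42.2, 32.9 and 41.6 CPM in control, 40.5, 34.8 and 26.8 CPM in Gata4 KD and 38.5, 33.3 and 32.4 CPM in Tbx20 KD, and followed the score. Ccne2 had 26.4, 38.8 and 27.2 CPM in control, 33.1, 32.8 and 19 CPM in Gata4 KD and 34.1, 27.1 and 24.7 CPM in Tbx20 KD. Control b, low for most members, was the highest of all 9 libraries for Ccne2 and for no other member. Ccne2 had the largest SD within groups (0.347) and the widest range, 2.04-fold, against a median range of 1.48-fold over the 38 genes.

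Of the genes that copy chromatin, Uhrf1, which guides maintenance of DNA methylation, had 91.1, 71.1 and 91.4 CPM in control, 81.7, 78.3 and 56.6 CPM in Gata4 KD and 92.9, 72.9 and 73.5 CPM in Tbx20 KD. Chaf1b, a subunit of the histone chaperone CAF-1, had 25.9, 21.9 and 28.6 CPM in control, 26.7, 22.4 and 17.2 CPM in Gata4 KD and 25.4, 20.5 and 20.7 CPM in Tbx20 KD. Both genes were lowest in Gata4 KD c, and the groups overlapped.

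The comparison of Gata4 KD with control asked whether loss of Gata4 went with a change of these genes. By edgeR's quasi-likelihood test with Benjamini-Hochberg adjustment over 14468 genes, 0 of 38 members passed 0.05, against 55 genes in all (0.380%). At an unadjusted p under 0.05 there were also 0 members, against 8.54% of all genes, and DESeq2 and limma-voom gave 0 members by either measure. The estimates lay on one side. The log2 fold change was negative in 37 of 38 members with a median of -0.15, against -0.02 over all genes tested, of which 54.1% were negative. Since the members move together from library to library, these 37 signs are not 37 independent observations, and they rested on 1 library. Without Gata4 KD c, 17 members were higher and 21 lower, with a median of -0.006. Without control b the median was -0.230 and 8 members had an unadjusted p under 0.05, when 21% of all genes did, and without control c the median was -0.086.

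The smallest unadjusted p in that comparison belonged to Gins2, with a log2 fold change of -0.35 (95% interval -0.75 to 0.05, adjusted p 0.666 by edgeR). Pold1 followed at -0.26 (-0.55 to 0.04, adjusted p 0.669) and Mcm6 at -0.17 (-0.38 to 0.03, adjusted p 0.67). The libraries of Gata4 KD lay wholly below control for 2 members, Mcm6 and Gins3, against 7.62% of all genes, and wholly above it for 0, against 6.19%. The members were thus no more often separated than genes at large. The 95% intervals of 34 of 38 members lay within a 1.5-fold change either way, and those of all 38 within 2-fold, which bounds the size of a change that these libraries could hide.

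In Tbx20 KD against control, 0 of 38 members passed over 14547 genes, against 1 gene in all (0.00687%), and 0 had an unadjusted p under 0.05, against 2.69% of all genes. DESeq2 and limma-voom gave 0 by both measures too. The median log2 fold change was -0.07, against a median within 0.01 of 0 over all genes, with 31 members negative and 7 positive. The median moved with each library left out: it was 0.013 without control c, -0.039 without control a, -0.141 without control b, -0.142, -0.016 and -0.002 without Tbx20 KD a, b and c. Without control b, 6 members had an unadjusted p under 0.05, when 17.4% of all genes did. No member had groups that did not overlap, against 2.80% of genes wholly higher and 3.94% wholly lower. Chaf1b had the smallest p, with a log2 fold change of -0.18 (95% interval -0.47 to 0.10), then Ccne1 at -0.15 (-0.41 to 0.11) and Orc6 at -0.11 (-0.31 to 0.10), each with an adjusted p of 1 by edgeR. All 38 intervals lay within a 1.5-fold change either way.

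Set directly against each other, the knockdowns gave 0 members past the threshold over 14477 genes, against 208 genes in all (1.44%). At an unadjusted p under 0.05 there were 2 members in edgeR and 3 each in DESeq2 and limma-voom, where edgeR gave 16.7% of all genes. Both were lower in Gata4 KD: Pold1 with a log2 fold change of -0.25 (95% interval -0.44 to -0.07, adjusted p 0.175) and Mcm6 with -0.17 (-0.34 to -0.00, adjusted p 0.286). Rrm1 came next at -0.16 (-0.32 to 0.00, adjusted p 0.306). Pold1 and Mcm6 were also the 2 members whose libraries did not overlap between the knockdowns, both lower, against 10.8% of genes wholly lower and 12.2% wholly higher. The median over the members was -0.07, with 31 lower and 7 higher, and it turned to 0.037 without Gata4 KD c and to 0.025 without Tbx20 KD a. Without Gata4 KD a it was -0.162 and 7 members had an unadjusted p under 0.05, when 13.8% of all genes did, and without Gata4 KD b, Tbx20 KD b or Tbx20 KD c it was -0.118, -0.122 and -0.123. With the replicate letter as a block, 6 members had an unadjusted p under 0.05, when 16.6% of all genes did, and 0 passed.

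**Figure D3:**
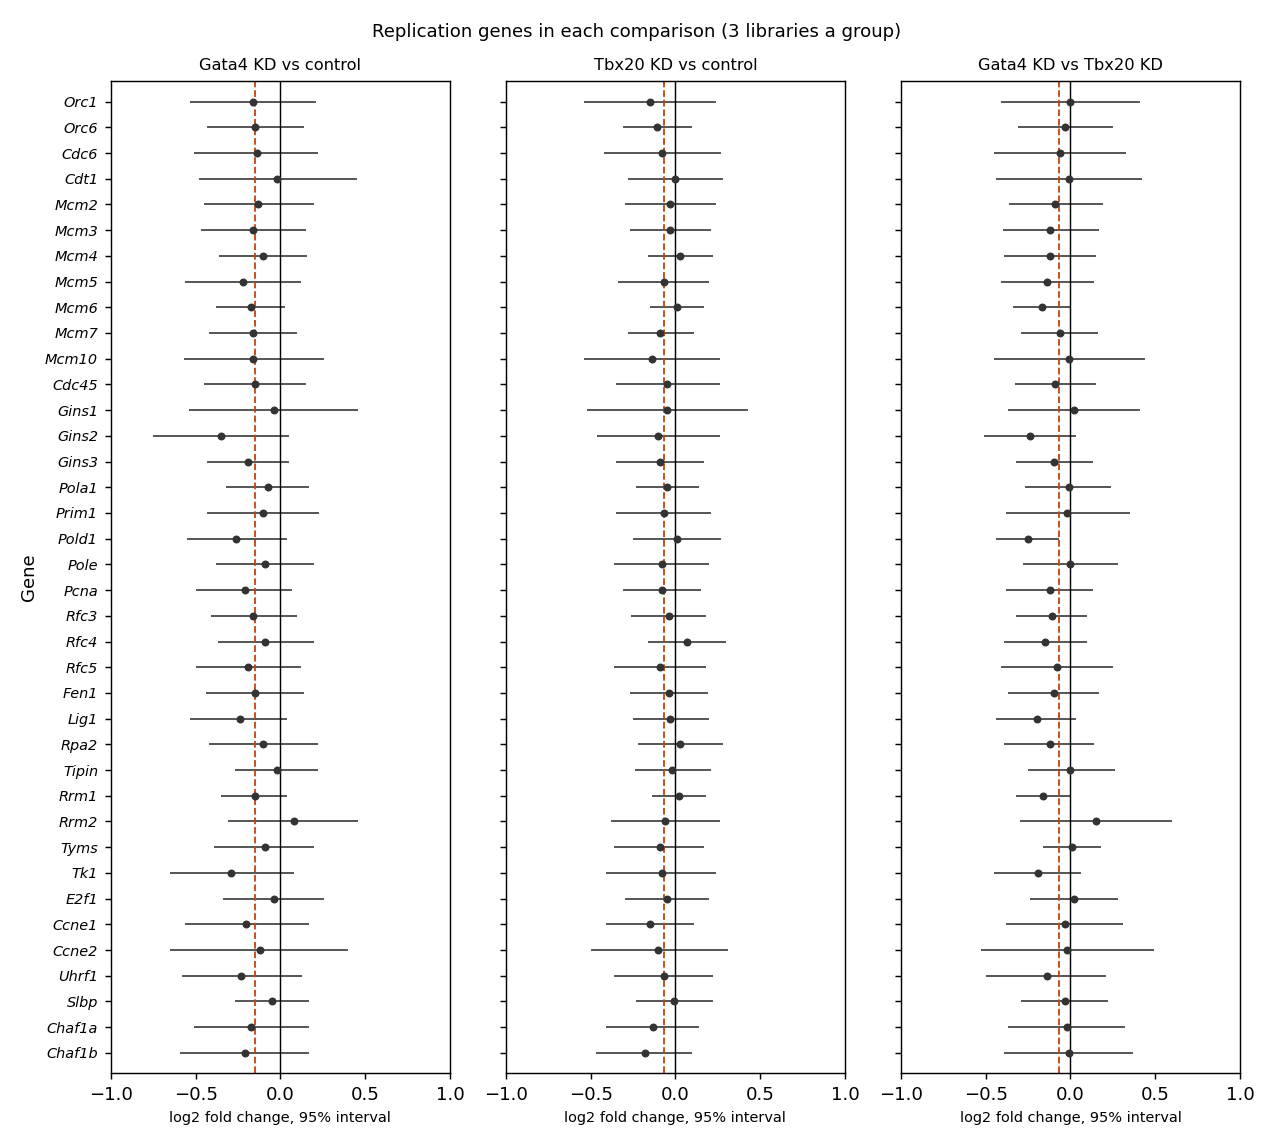
Log2 fold change of each of the 38 genes with its 95% interval (edgeR, 3 libraries a group) in the 3 comparisons, with the median over the members as a dashed line at -0.15, -0.07 and -0.07. All intervals in the first 2 panels reach 0, and in the third only those of Pold1 and Mcm6 stay below it.

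Tested for any difference among the 3 groups over 14782 genes, 0 members passed in edgeR, against 155 genes (1.05%), and 0 had an unadjusted p under 0.05, against 10.7% of all genes. DESeq2 and limma-voom gave 0 by both measures. The smallest adjusted p was 0.545, for Mcm6. Without control b, 5 members had an unadjusted p under 0.05, when 24.8% of all genes did and 643 genes passed. Pold1 then had an adjusted p of 0.0639, the lowest that any member reached in any fit. The members' largest difference between group means was a median of 0.155 on the log2 scale against a median SD within groups of 0.186, while over all genes kept these were 0.164 and 0.152. Groups accounted for a median of 16.8% of a member's variance over the 9 libraries, and for 24.6% over all genes. With 3 groups and 9 libraries such a share is well above 0 even where groups do not differ, as is the largest difference between means. Neither value therefore measures an effect of the knockdowns.

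The other genes of the cell cycle were then set beside the members. Of 52 further genes of origin firing, fork progress, nucleotide supply and S phase control, 0 passed in any of the 3 comparisons of groups by edgeR, DESeq2 or limma-voom, and the medians of their log2 fold changes were -0.09, -0.04 and -0.04. At an unadjusted p under 0.05 edgeR gave 3 in Gata4 KD against control (2 in DESeq2 and 3 in limma-voom), against 8.54% of all genes. The 3 tools each gave 0 in Tbx20 KD against control, against 2.69% of all genes in edgeR, and 3 between the knockdowns, against 16.7%. The shares of the 52 genes were thus no larger than those of genes at large. The genes with an unadjusted p under 0.05 included Pold2, a second subunit of polymerase delta, at -0.45 against control (adjusted p 0.478) and -0.37 against Tbx20 KD (adjusted p 0.155). Of 25 genes of mitosis 0 passed and 0 had an unadjusted p under 0.05 in any comparison by any of the 3 tools, and their medians were -0.10, -0.03 and -0.07. Among them Mki67, the proliferation marker, had 250, 231 and 286 CPM in control, 277, 290 and 200 CPM in Gata4 KD and 300, 208 and 226 CPM in Tbx20 KD. Top2a, the topoisomerase of dividing cells, had 266, 267 and 257 CPM in control, 285, 270 and 211 CPM in Gata4 KD and 304, 248 and 242 CPM in Tbx20 KD. Both had their lowest value in Gata4 KD c and their highest in Tbx20 KD a.

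Mitosis genes shared much of the order of libraries, though not all of it. Their score was 6.08, 5.97 and 6.16 in control, 6.14, 6.06 and 5.73 in Gata4 KD and 6.26, 5.94 and 5.92 in Tbx20 KD. Gata4 KD c was lowest of 9 in 23 of 25 mitosis genes and Tbx20 KD a highest of its group in all 25. The highest score of the 9 was that of Tbx20 KD a and not control c, and control b was lowest of its group in 16 and highest in 7 of the 25. The replication score minus the mitosis score stayed between -0.73 and -0.61 over the 9 libraries, while the replication score itself ranged from 5.03 to 5.55.

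Genes that hold the cycle back did not follow that order, and in part they reversed it. The list held 11 such genes, 7 inhibitors of cyclin-dependent kinases with Rb1, Rbl2 and the mainly repressive E2f4 and E2f5. Their score was 4.39, 4.48 and 4.36 in control a, b and c, 4.44, 4.34 and 4.51 in Gata4 KD and 4.39, 4.46 and 4.41 in Tbx20 KD. The controls stood in the reverse of their replication order, and Tbx20 KD a was lowest of its group. Gata4 KD c was highest of 9, but Gata4 KD b was lowest. The relation of the scores was not tested. Cdkn1a, the p21 inhibitor, had 485, 454 and 459 CPM in control, 450, 433 and 453 CPM in Gata4 KD and 478, 472 and 459 CPM in Tbx20 KD. Cdkn1b, the p27 inhibitor, had 42.1, 69.4 and 44.5 CPM in control, 52.4, 57 and 56.3 CPM in Gata4 KD and 49.5, 53.3 and 47.3 CPM in Tbx20 KD, so that control b was its highest library. By the same 3 tools 0 of the 11 passed in any comparison, their medians were 0.03, 0.07 and -0.04, and Cdkn2c between the knockdowns was the 1 gene with an unadjusted p under 0.05 in edgeR and DESeq2, where limma-voom gave 2 and edgeR 16.7% of all genes.

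The 6 G1 genes (the D cyclins, Cdk4, Cdk6 and Myc) differed from the other lists in that the controls stood apart by score. Their score was 7.64, 7.66 and 7.66 in control, 7.54, 7.49 and 7.46 in Gata4 KD and 7.60, 7.51 and 7.56 in Tbx20 KD, so all control values lay above all others, while the knockdowns overlapped and Gata4 KD c was again lowest of 9. The score was not tested. Ccnd1, cyclin D1, had 520, 543 and 490 CPM in control, 451, 454 and 399 CPM in Gata4 KD and 504, 467 and 477 CPM in Tbx20 KD. It was wholly lower in Gata4 KD than in control, as were Ccnd2 and Cdk6, where 7.62% of all genes were. The log2 fold change of Ccnd1 was -0.25 (95% interval -0.45 to -0.06) and did not pass by edgeR (adjusted p 0.423). In Tbx20 KD against control only Ccnd2 was wholly lower, where 3.94% of all genes were, and the other G1 genes overlapped. There 4 of the 6 had a negative and 2 a positive log2 fold change. By the 3 tools 0 of the 6 passed in any comparison, with medians of -0.16, -0.09 and -0.05. At an unadjusted p under 0.05 Ccnd1 was the 1 gene, in Gata4 KD against control by all 3 tools and between the knockdowns by DESeq2. Of all genes, 8.54% had such a p in Gata4 KD against control by edgeR, and 15% between the knockdowns by DESeq2.

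**Figure D4:**
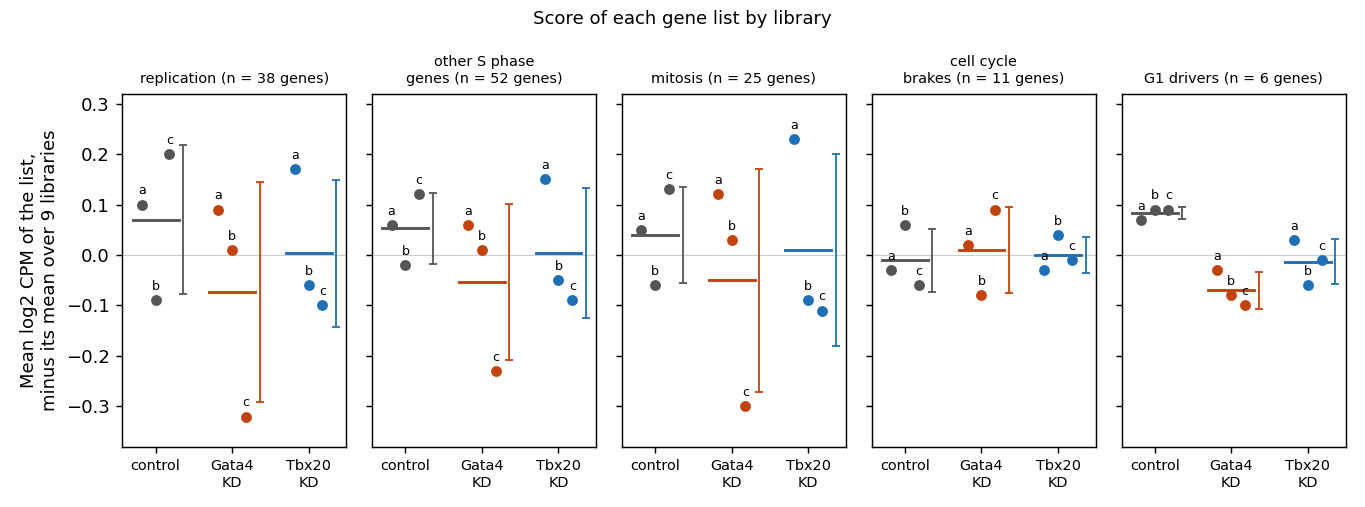
Mean log2 CPM of 5 gene lists in each library minus the list's mean over 9 libraries, with letters naming the replicates, horizontal bars the group means and vertical bars the SD (n = 3). The replication, other S phase and mitosis lists share their order of libraries within groups, with Gata4 KD c lowest of 9. The brakes span 4.34 to 4.51, and the mean of the G1 genes is highest in the 3 controls.

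Other measures varied within groups too, and some ran largely opposite to the replication score. The summed CPM of 8 endothelial markers was 43.7, 60 and 41.5 in control, 42, 43.6 and 61.3 in Gata4 KD and 45.3, 56 and 57.5 in Tbx20 KD, so it was highest where the replication score was lowest in each group. The angiopoietin receptor gene Tek made up 53.9% of it, and single markers were mixed, with 6 of 8 highest of their group in Gata4 KD c, 5 in control b and 4 in Tbx20 KD c. The summed CPM of 8 fibroblast markers was 9870, 10415 and 9072 in control, 7774, 6655 and 9745 in Gata4 KD and 8642, 9913 and 10749 in Tbx20 KD, again highest in control b, Gata4 KD c and Tbx20 KD c. The 8 leukocyte markers summed to 23.3 to 56.9 CPM and the mitochondrial share of counts was 0.806 to 1.21%, and neither kept that order. The part of these measures in the spread of the replication genes was not tested.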

How the data were processed

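RNA sequencing of 9 libraries in 3 groups of 3 was analysed. The authors prepared poly(A)-selected, strand-specific libraries, read 75 bases single-end, trimmed reads by quality and counted genes with RSEM. The study's methods name GRCm38 and Bowtie2 and the labels' processing notes list Bowtie, RSEM and mm9, so the build was not settled, and coordinates here are those of GENCODE M21 (GRCm38), used for symbols, positions and exon lengths. The deposited table holds expected counts, as whole numbers, not normalized by the authors.

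The members and lists were chosen with earlier results of these data known. Each comparison was fitted on its 6 libraries in R 4.3.3 with edgeR 4.0.16 (filterByExpr, TMM, quasi-likelihood F test, Benjamini-Hochberg, threshold 0.05, no covariate). A test for any difference used all 9. Log2 CPM for scores had a prior count of 2 and 95% intervals used the t distribution of the fit. The procedure was tested on simulated counts. Library depths limit counting error only. Members named with values were, in each role, the highest per kilobase and the most variable within groups, the 3 with the smallest p in each comparison and any past the threshold. Promoters were shown for the 4 members of highest CPM with a core.

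Alternatives were library size alone, DESeq2 1.42.0, limma-voom (limma 3.58.1), other filters, a replicate block on the letter, one fit of all 9 libraries, leaving out each replicate, and leaving out Pcna for shared reads. For the score they were a prior count of 0.5, a median and z-scores. Deviations from group means of same-lettered libraries correlated over genes at -0.17 to 0.25, above 0.1 in 2 of 9 pairs. For libraries of different letters it was -0.39 to 0.35, above 0.1 in 5 of 18 pairs. With 3 libraries a group this cannot tell whether a letter marks a shared animal or day, and the labels do not say.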

Additional observations from a re-analysis of the deposited data

How the results depend on the processing

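No member passed 0.05 in any of the 4 tests under any of the 54 alternative fits, DESeq2, limma-voom and the fits that left out 1 library included, and the lowest adjusted p was 0.0639, for Pold1 in the test for any difference without control b. At an unadjusted p under 0.05 the members ranged from 0 to 8 in Gata4 KD against control, 0 to 6 in Tbx20 KD against control and 1 to 7 between the knockdowns, with 8 and 6 reached without control b, when 21% and 17.4% of all genes did, and 7 without Gata4 KD a, when 13.8% did. The median log2 fold change of the members was between -0.163 and -0.138 in Gata4 KD against control, -0.078 and -0.061 in Tbx20 KD against control and -0.102 and -0.062 between the knockdowns over scalings, tools, filters, the block and the fit without Pcna. It spread to -0.230 to -0.006, -0.142 to 0.013 and -0.162 to 0.037 when 1 library was left out. The largest difference between group means of the score was 0.84 times the pooled SD, 0.83 to 1.28 times under other scores and 0.46 to 1.36 times without 1 library. The 9 log2 fold changes of the members named for the 3 smallest p in each comparison of 2 groups kept their signs under all alternatives. These members were picked from the same data, so steady signs follow in part from the choice. Calls over all genes depended more on the settings: for any difference there were 155 in edgeR, 584 in DESeq2 and 28 to 643 without 1 library, in Gata4 KD against control 55 in edgeR, 273 in DESeq2, 148 with all 9 libraries in one fit, 121 with no filter and 6 to 189 without 1 library, and between the knockdowns 208, 761 in DESeq2, 324 with no filter and 22 to 801 without 1 library. In Tbx20 KD against control 1 gene was called in edgeR, 10 in DESeq2, 2 with no filter and up to 5 without 1 library. With the replicate letter as a block, 5, 2, 101 and 86 genes were called in the 4 tests, and 0 members. The labels do not say whether the letters pair the samples. The median of the members under the block was -0.155, -0.065 and -0.077. The cause of these differences was not tested. With 3 libraries a group, the 95% intervals of single members had a median width of 0.61, 0.53 and 0.54 on the log2 scale.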

Other observations

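Histone genes of the replication-dependent clusters were looked at after the values of the members had been seen, since their transcripts are made in S phase and mostly lack the poly(A) tail on which these libraries were selected. Of 59 protein-coding genes with such symbols 35 passed the filter over 9 libraries, and most lay low, with Hist1h3c at 0.321 and Hist1h4a at 0.358 CPM on average. Hist1h1c at 143, Hist1h2bc at 95.1 and Hist1h2be at 30.9 CPM were the highest. Their summed level was 439, 373 and 402 CPM in control a, b and c, 387, 349 and 363 CPM in Gata4 KD and 362, 391 and 363 CPM in Tbx20 KD. The 5 highest genes held 81.8 to 86.5% of that sum in each library, so the order of libraries is mostly theirs. The other 54 genes summed to 65.9, 58.3 and 60.8 CPM in control and to 62.6, 63.4 and 53 CPM in Gata4 KD. In Tbx20 KD they summed to 52.8, 52.9 and 52.6 CPM, below all other libraries. The lowest library of each group was that of the replication score, though the Tbx20 KD values hardly differed. The order otherwise departed from the score, with Gata4 KD b above a, Tbx20 KD a not above b, and control a above c. Many of these genes are near-identical copies of each other, and the division of reads among them is uncertain.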
